A study of Rattus norvegicus with 22 samples.

Results

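X-ray treated contused rat spinal cord was compared with untreated contused cord on Affymetrix rat arrays. The comparison holds 5 of the 22 arrays of the series, chosen by their labels, 3 from contused rats given X-rays and 2 from contused rats given nothing. All probe sets except the manufacturer's controls were members, which left 31042 of 31099. In every contused group a 10 g weight with a tip of 2.5 mm fell from 25 mm onto the cord at thoracic level 10, and tissue was taken 24 h later. The X-ray group received 10 Gy in total from a 6 MV radiosurgery unit 20 min after the injury. As a second reference served 11 contused arrays of other treatments, 2 after clenbuterol and 3 after tempol (150 and 275 mg/kg as labelled, 20 min after injury), 3 after buthionine sulfoximine, BSO (150 mg/kg, 24 h before injury), and 3 after tempol plus BSO. The other 6 arrays, 3 after laminectomy alone and 3 of normal cord, served for orientation and are called uninjured here. The unit of the labelled clenbuterol dose could not be checked. There was no irradiated uninjured cord, the 24 h point was the only one, and the labels do not say whether each array came from a separate rat, so a p-value here speaks only of the spread among these arrays, which may be technical.

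Ionizing radiation breaks DNA, and the damage kinases stabilize the transcription factor p53. p53 switches on genes that hold the cell cycle, repair DNA or lead to apoptosis, and through the inhibitor p21 it silences the genes of replication and mitosis. Contused cord at this stage contains invading neutrophils and macrophages, reactive astrocytes, dying oligodendrocytes and cells that have begun to divide, so each of these programmes could be read from the same tissue. In bulk tissue fewer cells of a type and less RNA per cell cannot be told apart.

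The deposited value is a signal intensity scaled to the same trimmed mean on every array, and it was compared on the log2 scale with limma. Markers of cord were present. The myelin basic protein gene Mbp had 36448.0, 37194.9 and 27050.4 in the X-ray arrays against 22147.7 and 40004.4 in the contusion arrays. Skeletal muscle genes averaged between 6.28 and 6.79 on the log2 scale in the X-ray arrays and 6.57 and 6.68 in the contusion arrays. The X-ray arrays correlated with each other at 0.813 to 0.843, the pair of contusion arrays at 0.785, and X-ray with contusion arrays at 0.778 to 0.809. The log2 ratio of 3′ to 5′ probe sets of actin, a sign of RNA quality, was 0.61, 0.47 and 0.55 in the X-ray arrays against −0.06 and 0.40 in the contusion arrays. The same ratio of Gapdh was 0.65, 0.32 and 0.23 against 0.27 and 0.33, and the groups overlapped. Hybridization spikes averaged 12.04, 12.55 and 12.16 against 11.12 and 12.46. The part of these in any result below was not tested.

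No probe set passed an adjusted p of 0.05 between X-ray and untreated contusion (0 of 31042, 0.00%, limma with Benjamini-Hochberg adjustment). At an unadjusted p under 0.05 stood 1492 probe sets, where 1552.1 would by chance. Over the 14217 genes, each read by its brightest probe set, 2.27% were higher and 2.30% lower at that level. The median difference over all genes was −0.01. The smallest adjusted p was 0.0707, for a probe set without a gene name, and over the genes of 33 lists it was 0.942. So the gene values below are descriptions of 5 arrays, with standard errors after ±, and the words higher and lower say only where the values lay. Where leaving out 1 of the 5 arrays moved a difference by over 1.5 times, the lowest and highest value so reached follow it after the word range. All 3 X-ray arrays lay above both contusion arrays in 12.5% of genes and below both in 12.3%, which is the level against which each list is read.

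The p53 targets were higher in part. Of 27 measured, 18 were higher, 7 had all X-ray arrays above both contusion arrays (25.9%, against 12.5% of all genes) and 1 had them below (3.70%, against 12.3%). Their median difference was 0.23, between 0.09 and 0.38 with any of the 5 arrays left out. On average over the list the X-ray arrays stood at 7.9, 7.96 and 7.53 (log2) and the contusion arrays at 7.79 and 7.26. The list average thus overlapped between the groups, and the other treated cords ranged from 7.26 to 7.75. Ccng1, which encodes cyclin G1, a direct p53 target that acts back on p53 through MDM2, had signals of 1489.7, 1346.3 and 1553.4 in the X-ray arrays against 588.3 and 450.7 in the contusion arrays. The X-ray values were tightly grouped and none came near a contusion value. The difference was 1.50 ± 0.61 on the log2 scale (2.84-fold). Across the other treated cords Ccng1 lay between 151.8 and 894.3 with a median of 483.7, and across the uninjured cords between 87.6 and 475.3. The X-ray arrays were thus above all 19 others.

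Mdm2, the ubiquitin ligase that degrades p53 and is itself a p53 target, had 1359.2, 1654.4 and 1617.5 in the X-ray arrays against 1346.6 and 1265.8 in the contusion arrays. X-ray 1 barely cleared contusion 1, and the difference was 0.24 ± 0.42. The other treated cords reached at most 1333.6 and the uninjured at most 993.3, so the order again placed X-ray above all 19. The other probe sets of Mdm2, both dimmer, differed by 0.16 and 2.70 from contusion and by −0.40 and 1.50 from the other treated cords. Phlda3, a p53-induced inhibitor of the kinase AKT, had 789.1, 413.1 and 525.3 in the X-ray arrays against 367.2 and 93.7 in the contusion arrays. Its difference was 1.58 ± 0.87 (range 0.60 to 2.57, the lowest without contusion 2), and the other treated cords (42.4 to 658.4) overlapped the X-ray range. Xpc, which senses damage for nucleotide excision repair, had 1207.1, 752.5 and 733.3 in the X-ray arrays against 473.2 and 427.2 in the contusion arrays (0.96 ± 0.48). The other treated cords had an Xpc median of 740.4, inside the X-ray range.

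Other p53 targets were mixed. Cdkn1a, which encodes the cell-cycle inhibitor p21, had 1280.4, 1921.1 and 2712.3 in the X-ray arrays against 1275.4 and 909.6 in the contusion arrays, a difference of 0.81 ± 1.20. X-ray 1 barely cleared contusion 1. Cdkn1a varied widely elsewhere too, from 162.2 to 3869.1 in the other treated cords. Gadd45a, a growth arrest and damage gene, had 235.7, 248.0 and 385.5 against 161.5 and 465.3, with the X-ray values inside the contusion range (0.04 ± 0.86, range −0.72 to 0.81). Of the genes chosen after their values were seen, the antioxidant sestrin Sesn2 had 358.0, 264.1 and 338.2 in the X-ray arrays against 118.4 and 169.8 in the contusion arrays. Plk3, a stress kinase, was the 1 target of the list below both contusion arrays (82.3, 129.4 and 71.4 against 163.6 and 160.3). Rps27l, which the list did not hold, had 123.0, 170.1 and 199.1 against 288.6 and 1347.2 (−1.95 ± 0.96, range −3.07 to −0.84). Its X-ray arrays lay below all 13 other contused arrays. Bax, the mitochondrial death effector, was on the list but not measured by a probe set with 1 gene name.

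The promoter of Ccng1 is shown because this gene had the smallest p of the p53 targets against the other treated cords. The window runs from 250 bases before the transcription start to 50 after it (RefSeq, GRCr8, chr10:25684827-25685126, minus strand), and capitals mark a match to the p53 response element, taken as 1 of its repeats.
Ccng1: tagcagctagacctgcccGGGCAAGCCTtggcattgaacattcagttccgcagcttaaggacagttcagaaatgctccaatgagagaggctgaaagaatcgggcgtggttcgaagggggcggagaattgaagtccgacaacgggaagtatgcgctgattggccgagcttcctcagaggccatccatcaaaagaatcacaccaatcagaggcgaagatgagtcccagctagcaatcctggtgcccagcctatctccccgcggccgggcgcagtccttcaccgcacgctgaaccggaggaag
This element is 10 letters of the p53 consensus, searched on both strands. It matched 7.98% of all 33469 promoter windows of this length and those of 6 of the 22 p53 targets found in the table. The median difference was 0.79 for these 6 genes and 0.24 for the other 16. All X-ray arrays lay above both contusion arrays in 2 of the 6 and in 5 of the 16. By that count the match did not sort the genes. A match describes letters only, and p53 sites of other targets may lie outside this window.

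**Figure D1:**
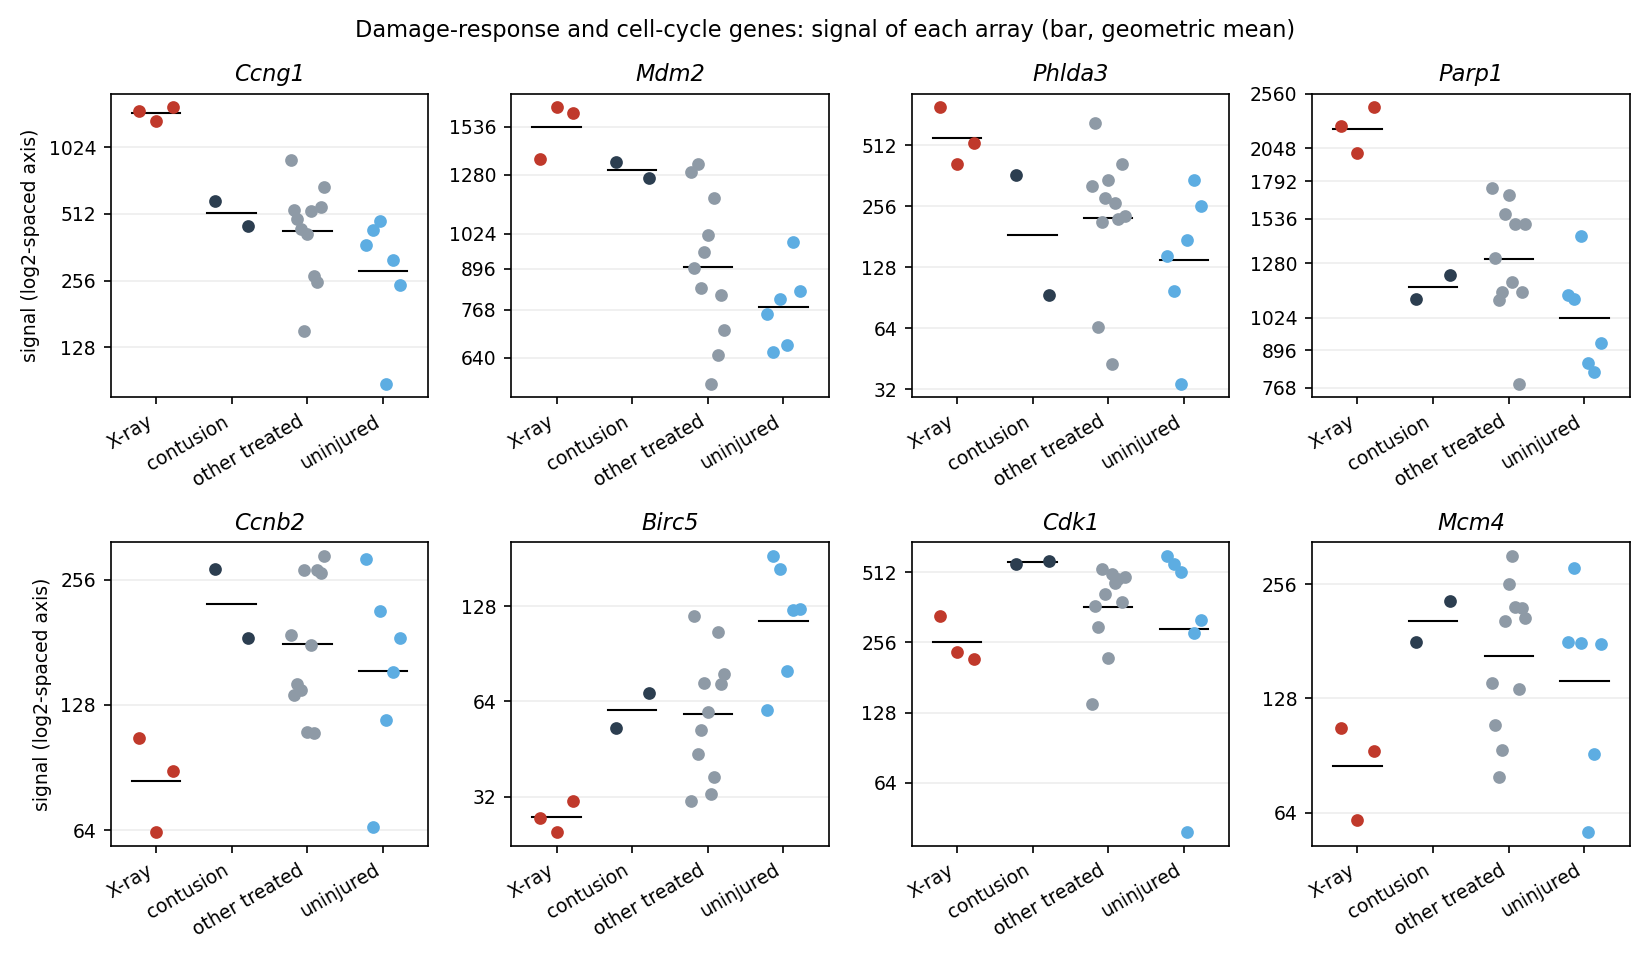
Signal of each array (log2-spaced axis) for 4 damage-response genes and 4 cell-cycle genes in X-ray, untreated contusion, other treated contused and uninjured cord, with 1 point per array and a bar at the geometric mean. The X-ray points of Ccng1, Mdm2 and Parp1 lie above all 19 other arrays, and those of Ccnb2 lie below both contusion and all 11 other treated arrays.

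DNA repair and damage signalling genes showed no common direction. Of 30 measured, 13 were higher, 3 lay above both contusion arrays (10.0%) and 7 below both (23.3%). The median of −0.25 was 0.19 without contusion 1 and −0.54 without contusion 2. Parp1, chosen after its values were seen, encodes the polymerase that marks DNA breaks with poly-ADP-ribose. It had 2244.1, 2009.0 and 2423.7 in the X-ray arrays against 1103.3 and 1221.1 in the contusion arrays, a difference of 0.93 ± 0.40 (1.91-fold). The other treated cords reached at most 1744.5 and the uninjured at most 1431.1, so X-ray lay above all 19. Xrcc6, which encodes the end-binding protein Ku70, had 88.0, 170.8 and 53.6 against 20.5 and 14.5, but its other treated median of 82.1 fell inside the X-ray range. Rad52, a recombination gene, had 27.9, 4.5 and 27.5 against 205.2 and 116.6, and the other treated median was 26.1. Its X-ray signals were far below the medians of these arrays, 144.0 to 147.7. The mismatch repair gene Msh6 had 85.0, 59.8 and 60.7 against 15.8 and 41.3 (1.40 ± 0.57, range 0.71 to 2.10). Every other treated array of Msh6 was above both contusion arrays too, with a lowest value of 62.5.

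Genes of G2 phase and mitosis were lower after X-ray. Of 34 measured, 14 had all X-ray arrays below both contusion arrays (41.2%, against 12.3% of all genes) and 0 had them above, against 12.5%. The median difference was −0.40. It was −0.18 without contusion 1, −0.16 without X-ray 1, −0.65 without contusion 2 and −0.61 without X-ray 3. Against the other treated cords, with the same X-ray arrays, the median was −0.34 and 28 of 34 were lower. On average over the list the X-ray arrays stood at 6.97, 6.94 and 7.29 on the log2 scale against 7.60 and 7.34 in the contusion arrays. The other treated cords ranged from 6.97 to 7.76 and the uninjured from 6.80 to 7.87, so the list average separated X-ray from contusion but not from the remaining arrays.

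Ccnb2, the cyclin B2 gene that drives entry into mitosis, had 106.3, 63.3 and 88.7 in the X-ray arrays against 271.2 and 185.6 in the contusion arrays. The difference was −1.41 ± 0.55. All 11 other treated arrays, from 109.7 to 292.2, were also above the X-ray values. Birc5, which encodes survivin of the chromosomal passenger complex, had 27.4, 24.7 and 30.9 against 52.9 and 68.2 (−1.12 ± 0.57). The lowest other treated array, at 30.9, equalled the highest X-ray array, and the uninjured cords began at 60.1. Ect2, the exchange factor that starts cytokinesis, had 8.7, 7.4 and 12.3 against 68.4 and 107.1 (−3.21 ± 0.95). The X-ray signals of Ect2 and Birc5 were far below the array medians of 144.0 to 147.7, and the other treated cords reached down to 9.1 for Ect2.

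The kinase gene Cdk1, the partner of the B cyclins, had 331.4, 233.5 and 216.5 in the X-ray arrays against 556.5 and 569.4 in the contusion arrays (−1.14 ± 0.69). Ccnb1, for cyclin B1, had 601.6, 537.5 and 234.2 against 858.1 and 721.0 (−0.89 ± 0.57, range −1.15 to −0.47). Both were lower than both contusion arrays and overlapped the other treated cords, whose medians were 413.7 and 615.4. The proliferation antigen gene Mki67 overlapped, with 31.2, 57.6 and 59.5 against 223.9 and 49.1. Top2a, the topoisomerase that untangles chromosomes, did not separate (308.8, 386.2 and 267.2 against 421.3 and 247.0, difference −0.03 ± 0.71, range −0.41 to 0.36). A second Top2a probe set of similar brightness differed by −1.16 from contusion and −0.63 from the other treated cords. Among genes chosen after their values were seen, the spindle checkpoint gene Mad2l1 had 99.0, 128.1 and 120.9 against 185.4 and 188.1, and the kinetochore gene Spc25 had 248.5, 279.4 and 152.3 against 438.7 and 446.7. The anaphase activator gene Cdc20 overlapped, with 201.6, 102.9 and 470.0 in the X-ray arrays against 110.9 and 114.2 in the contusion arrays.

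Promoters of 3 mitotic genes are shown because these genes lay below both contusion arrays and because many genes of this list carry the same short elements. Capitals mark the cell cycle genes homology region, or CHR, TTTGAA, and the CCAAT box, CCAAT, each searched on both strands in the same window of RefSeq, GRCr8. The CHR is the element through which the DREAM complex, acting below p53 and p21, is known to repress mitotic genes.
Ccnb2, chr8:79981609-79981908, minus strand: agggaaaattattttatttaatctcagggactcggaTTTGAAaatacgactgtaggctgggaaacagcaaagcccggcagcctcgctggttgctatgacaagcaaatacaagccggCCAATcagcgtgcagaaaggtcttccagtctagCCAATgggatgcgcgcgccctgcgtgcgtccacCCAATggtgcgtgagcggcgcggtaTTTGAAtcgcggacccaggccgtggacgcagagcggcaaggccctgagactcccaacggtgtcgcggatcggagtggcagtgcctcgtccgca
Birc5, chr10:103571896-103572195, plus strand: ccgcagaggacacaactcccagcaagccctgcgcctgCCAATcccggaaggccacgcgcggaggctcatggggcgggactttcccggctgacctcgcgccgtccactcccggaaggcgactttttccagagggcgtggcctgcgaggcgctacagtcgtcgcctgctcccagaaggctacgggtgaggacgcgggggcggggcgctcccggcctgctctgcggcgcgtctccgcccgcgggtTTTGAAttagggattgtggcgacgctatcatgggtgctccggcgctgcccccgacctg
Cdk1, chr20:19265043-19265342, plus strand: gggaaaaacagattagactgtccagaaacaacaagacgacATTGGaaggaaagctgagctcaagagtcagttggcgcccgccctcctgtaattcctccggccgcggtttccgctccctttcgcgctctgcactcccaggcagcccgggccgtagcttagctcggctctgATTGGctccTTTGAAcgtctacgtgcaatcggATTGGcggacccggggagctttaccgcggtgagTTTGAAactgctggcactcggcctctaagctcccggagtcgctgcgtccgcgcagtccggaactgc
Ccnb2 and Cdk1 each hold 2 CHR and 3 CCAAT matches, and Birc5 holds 1 of each. A CHR was present in 21 of the 30 promoters of the list found in the table (70.0%), against 18.3% of all promoters, and a CCAAT box in 23 (76.7%), against 37.5%. Both stood together in 18 (60.0%), against 7.41%. Matches of these elements shared a base in 23 of all 33469 promoters. Within the list the match did not sort the genes, since the median difference was −0.43 for the 21 with a CHR and −0.37 for the 9 without. Of the S phase genes 2 of 20 held a CHR (10.0%).

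Genes of S phase and DNA replication were mostly lower. Of 25 measured, 6 were higher, 1 lay above both contusion arrays and 7 below both (28.0%), with a median difference of −0.38. The median stayed between −0.62 and −0.33 with any array left out, and was −0.34 against the other treated cords. Mcm4, a subunit of the replicative helicase, had 107.3, 61.1 and 93.2 in the X-ray arrays against 180.2 and 231.4 in the contusion arrays (−1.27 ± 0.53). The other treated range of 79.4 to 304.1 took in 2 of the X-ray arrays. Mcm6, from the same helicase, had 109.8, 16.3 and 17.4 against 137.0 and 217.5 (−2.46 ± 0.97). Its signals in X-ray 2 and X-ray 3 were far below the medians of these arrays, 147.7 and 144.0. Pcna, the sliding clamp of replication, had 1562.3, 1730.6 and 1976.5 against 1790.0 and 2717.9 and overlapped (−0.34 ± 0.73, range −0.64 to −0.03). The genes of macrophages, a cell type that can divide in such lesions, averaged 9.10, 9.09 and 9.03 on the log2 scale in the X-ray arrays against 8.98 and 9.07 in the contusion arrays, and the groups overlapped. This average does not count cells, and the part of cell numbers in the S phase values was not tested.

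**Figure D2:**
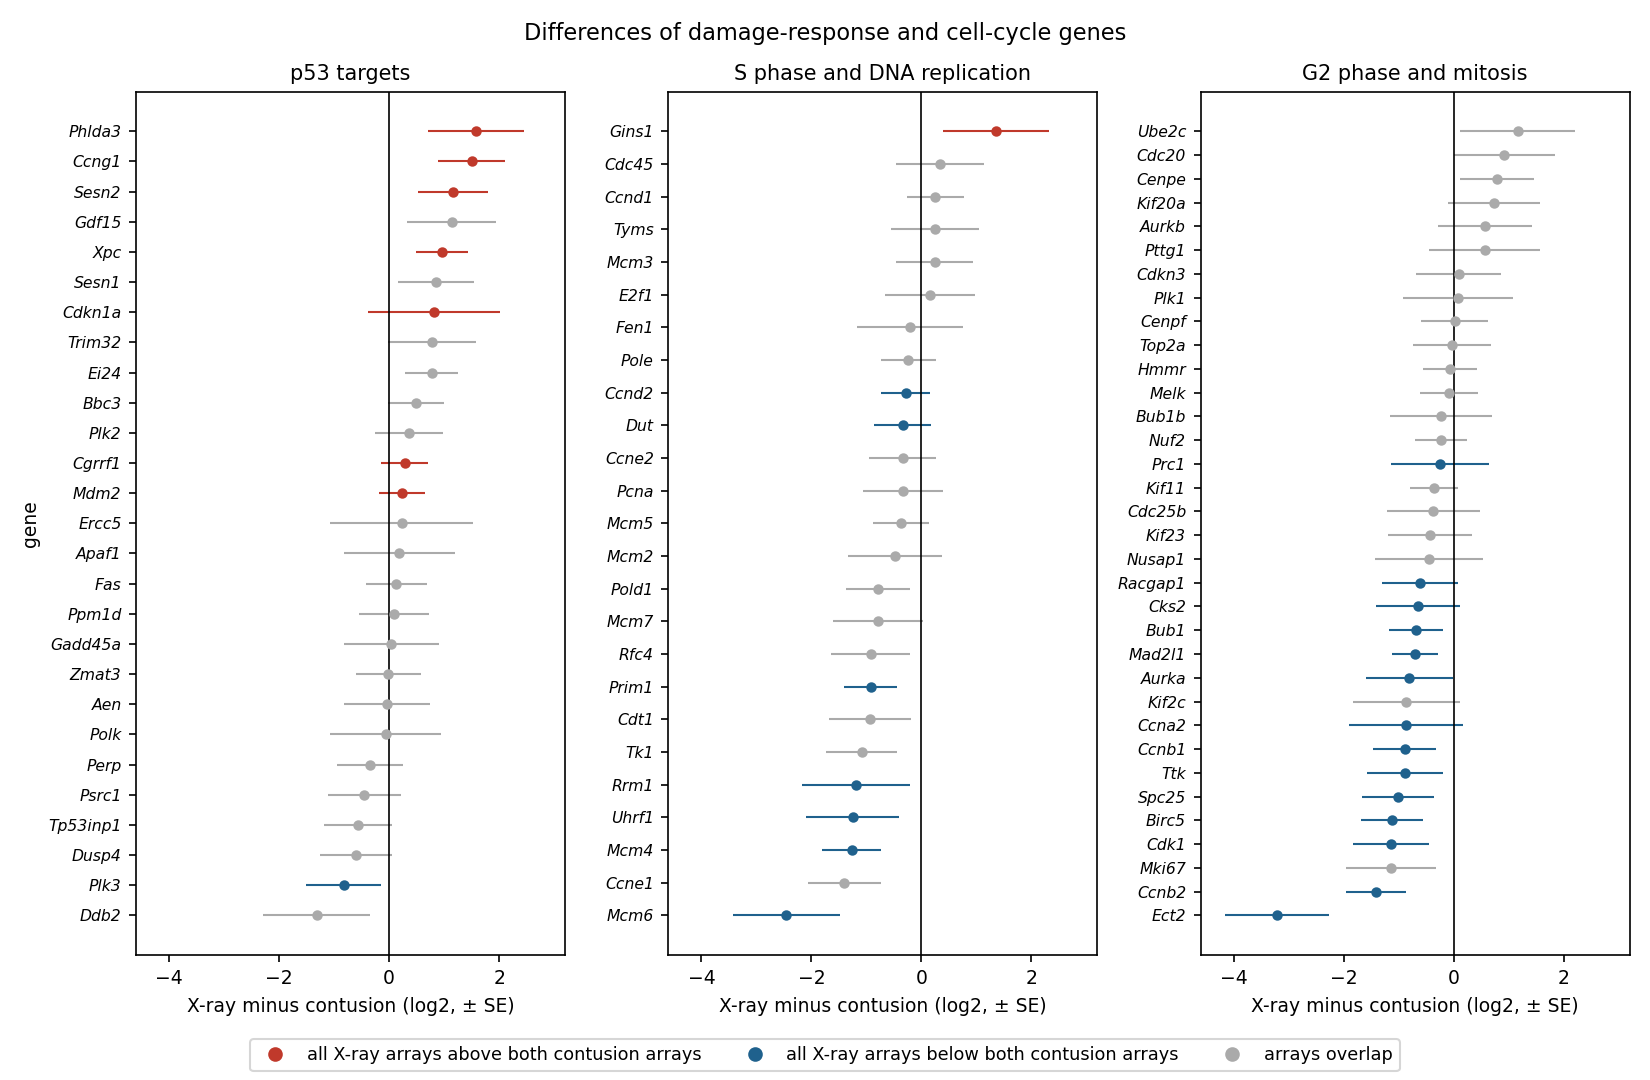
Log2 difference, X-ray minus contusion, with its standard error for each measured p53 target, S phase gene and G2 or mitosis gene, sorted within each panel. Colours show whether all X-ray arrays lay above or below both contusion arrays. In the mitosis panel 14 of 34 genes lay below and 0 above.

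Apoptosis genes were centred on 0 (median 0.01, 12 of 23 higher). Hrk, a death-promoting BH3 protein of neurons, had 113.9, 255.0 and 162.5 in the X-ray arrays against 48.5 and 31.0 in the contusion arrays (2.11 ± 0.68), and the other treated range of 45.2 to 270.5 overlapped. Bad, another BH3 gene, had 465.6, 752.9 and 725.7 against 353.3 and 454.2 (0.66 ± 0.45). For both genes the X-ray arrays lay above the contusion arrays. Over the list 4 lay above (17.4%) and 3 below, near the shares among all genes.

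Genes of inflammation were higher in part, among them several chemokines and the neutrophil products S100a8 and S100a9. Of 33 cytokines and chemokines, 22 were higher, 9 lay above both contusion arrays (27.3%) and 3 below (9.09%), with a median difference of 0.17. Against the other treated cords the median was 0.03. The neutrophil attractant Cxcl3 had 491.1, 402.7 and 802.2 in the X-ray arrays against 55.0 and 88.5 in the contusion arrays (2.96 ± 0.85). Its other treated median was 127.3, with a highest array of 859.0. The other 4 probe sets of Cxcl3, all dimmer, differed from contusion by 1.02, 1.18, −1.21 and 0.63. The chemokine genes Ccl4 (1.38 ± 0.55, range 0.45 to 2.32) and Ccl5 (1.87 ± 0.83, range 0.81 to 2.93) also lay above both contusion arrays, but the other treated medians of 544.2 and 304.8 fell inside their X-ray ranges, and both lowest differences were those without contusion 2. Of those chosen after their values were seen, the monocyte attractant Ccl7 had 821.8, 888.2 and 1030.9 in the X-ray arrays against 442.1 and 363.8 in the contusion arrays (1.18 ± 0.54, 2.27-fold). The X-ray arrays of Ccl7 were above all others, which reached 557.5 in treated and 159.9 in uninjured cord. Ccl6 (1332.5, 2139.7 and 2307.9 against 803.6 and 1294.7) and Il1rn, the natural antagonist of interleukin 1 (231.4, 156.6 and 142.0 against 115.8 and 56.3), were likewise above all 19. Ccl2, the main monocyte attractant, had 2575.0, 3923.9 and 5077.0 against 2239.6 and 2307.0 (0.71 ± 0.70), inside the other treated range up to 4024.8 except for X-ray 3.

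The neutrophil markers went both ways, with 8 of 12 genes higher and 4 lower and a median difference of 0.23. Of these, 4 lay above both contusion arrays and 1 below. Against the other treated cords 7 were higher and 5 lower. S100a8, a calprotectin subunit, had 754.9, 924.1 and 966.3 in the X-ray arrays against 279.1 and 321.0 in the contusion arrays (1.55 ± 0.74). Its partner S100a9 had 1757.4, 2786.3 and 2335.9 against 634.3 and 1267.3 (1.33 ± 0.76, range 0.83 to 1.83). Both were above all 19 other arrays, the highest of which were at 626.0 and 1525.1. Averaged over the list, the X-ray arrays stood at 8.17, 8.23 and 8.32 against 7.68 and 8.10, and the highest other treated array at 8.29.

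The macrophage list was near 0 (median 0.07), and its members went apart. Cd14, the lipopolysaccharide co-receptor, had 757.4, 804.7 and 866.2 in the X-ray arrays against 382.7 and 516.7 in the contusion arrays (0.86 ± 0.47) and lay above all 19. Cd68, the lysosomal macrophage glycoprotein, had 278.6, 93.3 and 84.3 against 669.1 and 364.8 (−1.93 ± 0.88), with the other treated cords from 60.0 to 908.2. The mannose receptor gene Mrc1 had 330.5, 184.0 and 210.0 against 153.7 and 51.1 (1.40 ± 0.69, range 0.60 to 2.19), and the other treated median was 179.5. The microglia list had a median of 0.19, which was −0.09 without contusion 1, and 0 of 14 lay above both contusion arrays. Its gene Aif1, which encodes the microglial protein IBA1, had 1559.4, 1316.2 and 951.3 against 1295.7 and 913.8 and overlapped. The lymphocyte list was lower in 14 of 21 genes with a median of −0.16. Perforin, Prf1, had 17.0, 13.2 and 40.1 against 68.2 and 49.8 (−1.49 ± 0.75). Erythroid genes had a median of −0.42 over 10 genes, 0 above both contusion arrays and 2 below, while against the other treated cords the median was −0.08.

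**Figure D3:**
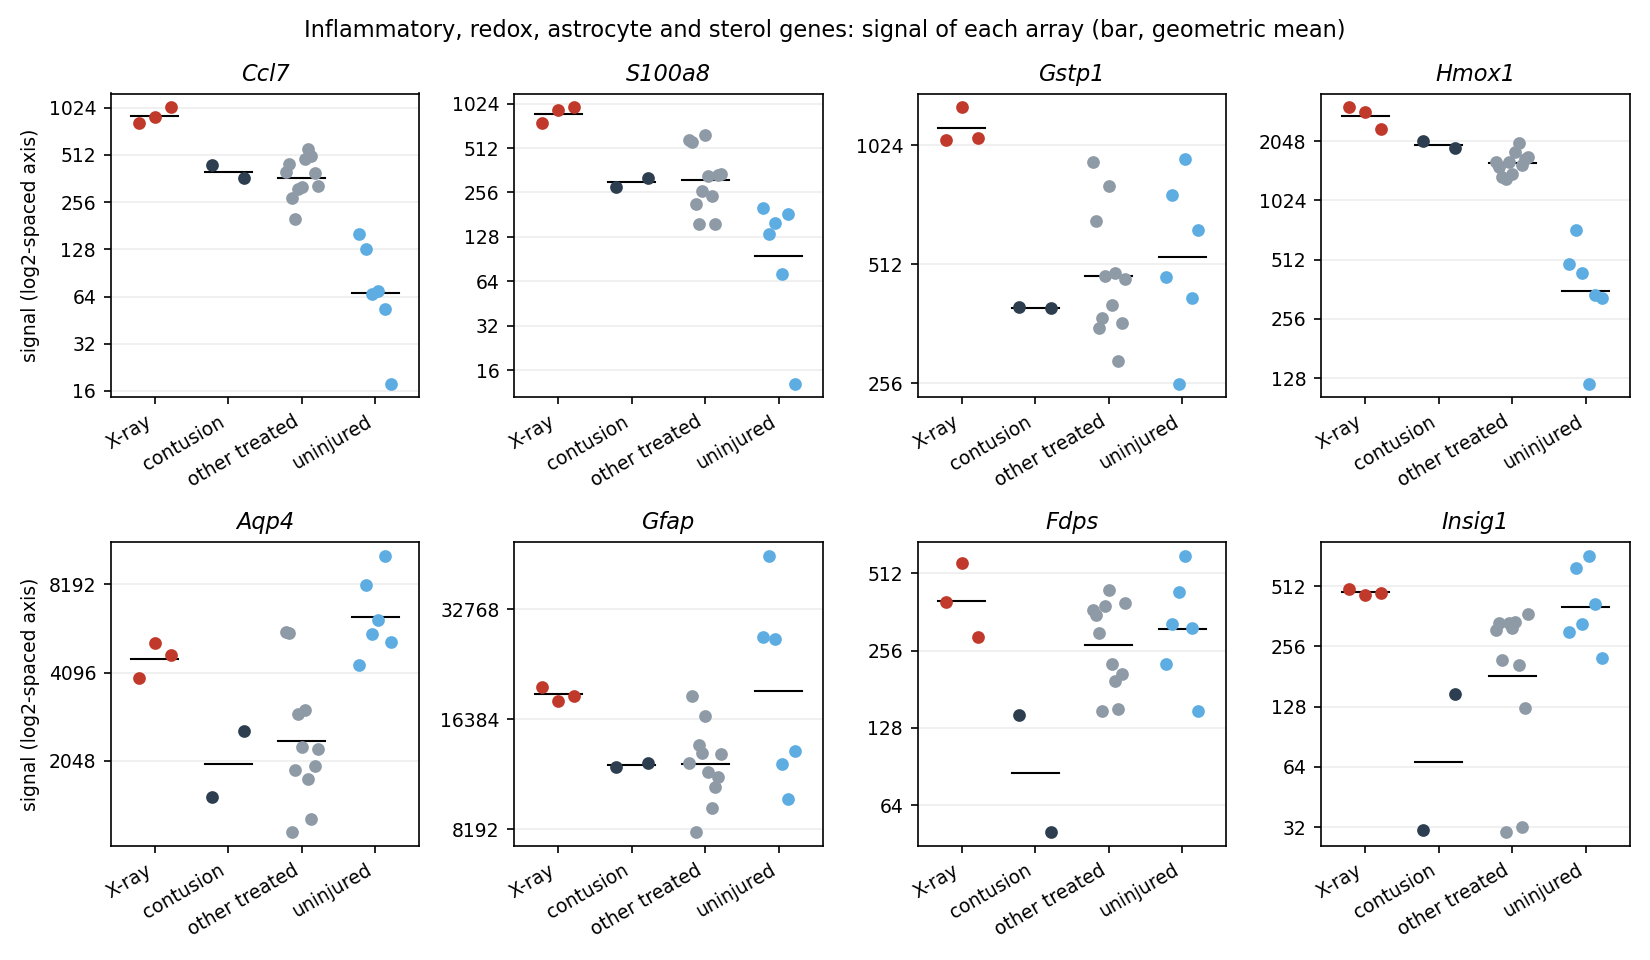
Signal of each array (log2-spaced axis) for inflammatory, redox, astrocyte and sterol genes in the 4 sets of cords, with 1 point per array and a bar at the geometric mean. The X-ray points of Ccl7, S100a8, Gstp1 and Hmox1 lie above all others, while for Fdps both contusion points lie below all others.

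Redox genes as a list did not differ, since the NRF2 targets and glutathione genes had a median of 0.04 over 34, with 7 above both contusion arrays (20.6%) and 5 below (14.7%). Gclc and Gclm, the subunits of the enzyme that limits glutathione synthesis and that BSO blocks, overlapped between the groups. Gclc had 646.1, 808.2 and 1075.2 in the X-ray arrays against 837.8 and 612.6 in the contusion arrays, and Gclm had 154.8, 261.5 and 126.9 against 124.9 and 196.8. Gstp1, a glutathione transferase, had 1058.0, 1278.0 and 1065.8 against 398.0 and 397.4 (1.51 ± 0.50, 2.84-fold). It was above all 19 other arrays, of which the highest had 945.2. Sod2, the mitochondrial superoxide dismutase, had 748.1, 889.1 and 486.1 against 457.1 and 83.0 (1.82 ± 0.78, range 0.59 to 3.05, the lowest without contusion 2). Its other treated range of 75.7 to 816.0 took in X-ray 1 and X-ray 3. Hmox1, which breaks down heme, had 3038.6, 2892.6 and 2363.7 against 2058.0 and 1877.4 (0.48 ± 0.45). The other treated cords reached 2003.7 for Hmox1, so X-ray lay above all 19. Gsta3, another transferase, had 17.4, 47.6 and 28.4 against 207.5 and 130.0 (−2.52 ± 0.95), but the other treated range of 7.6 to 299.7 took in all of these arrays. The zinc-binding metallothionein Mt3 had 2484.4, 1041.9 and 3103.9 against 247.3 and 1103.3 and overlapped (1.94 ± 0.90, range 0.86 to 3.02).

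Astrocyte genes were mostly higher than in untreated contusion. Of 17 measured, 13 were higher and 4 lower, and 6 lay above both contusion arrays (35.3%) and 0 below. The median difference was 0.35, between 0.23 and 0.60 with any array left out. Against the other treated cords the median was 0.39, with 6 of 17 lower. On average over the list the X-ray arrays stood at 8.72, 9.13 and 8.96 (log2) and the contusion arrays at 8.5 and 8.68. The other treated cords ranged from 8.1 to 9.21. Aqp4, the water channel of astrocyte endfeet, had 3913.9, 5186.0 and 4703.9 in the X-ray arrays against 1538.5 and 2584.2 in the contusion arrays (1.20 ± 0.49). The other treated median was 2241.2 and the uninjured cords ran from 4361.1 to 10256.7. The X-ray arrays were above both contusion arrays and overlapped the uninjured cords. Of the other treated cords only the clenbuterol arrays, at 5633.6 and 5580.5, reached the X-ray level, and the rest went up to 3046.1. Other probe sets of Aqp4, both dimmer, differed from contusion by 1.18 and −0.03. Ntsr2, an astrocytic neurotensin receptor, had 734.7, 907.1 and 688.3 against 362.3 and 436.3 (0.96 ± 0.42) and lay above all 13 other contused arrays. S100b, a calcium-binding astrocyte protein, had 7985.5, 8857.5 and 6965.8 against 4491.6 and 3932.4 (0.91 ± 0.44). The clenbuterol arrays had 9141.2 and 7013.6 for S100b, the first above every X-ray array, and the rest of the other treated cords reached 4721.4. Gfap, the filament protein of astrocytes, had 20095.2, 18399.5 and 19033.2 against 12101.0 and 12442.3 (0.64 ± 0.42), and the other treated cords reached 18984.6. The list of reactive astrocyte genes, which holds Gfap, had a smaller median of 0.11 with 5 of 22 above both contusion arrays and 0 below.

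Myelin genes were higher than in untreated contusion in 19 of 21, with 8 above both contusion arrays (38.1%) and 0 below. The median was 0.44, between 0.33 and 0.65 with any array left out, and 0.30 against the other treated cords. Averaged over the list the X-ray arrays stood at 10.06, 10.08 and 9.52 against 9.40 and 9.39, with the other treated cords from 9.14 to 10.17 and the uninjured from 9.77 to 10.82. Mal, a raft protein of compact myelin, had 666.4, 547.6 and 464.6 in the X-ray arrays against 314.2 and 199.1 in the contusion arrays (1.15 ± 0.53). Aspa, the aspartoacylase of oligodendrocytes, had 285.4, 276.2 and 292.1 against 84.3 and 189.0 (1.17 ± 0.72, range 0.59 to 1.75). Ermn, a cytoskeletal protein of myelinating cells, overlapped at 706.9, 1238.3 and 530.1 against 556.9 and 102.4. Mbp itself differed by 0.16 ± 0.57 (range −0.27 to 0.59), and its 2 dimmer probe sets by 1.07 and 0.87.

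Oligodendrocyte progenitor genes, which mark a cell type known to be sensitive to radiation, had a median of 0.54 over 19, with 7 above both contusion arrays (36.8%) and 1 below (5.26%). Against the other treated cords it was 0.14, and over the brighter probe sets alone it was −0.06. Pdgfra, the growth factor receptor of these cells, had 471.6, 486.7 and 636.2 in the X-ray arrays against 207.4 and 392.4 in the contusion arrays (0.88 ± 0.74, range 0.42 to 1.34). Enpp6, an early marker of their differentiation, had 144.5, 113.1 and 105.4 against 23.2 and 26.4 (2.28 ± 0.88), with an other treated median of 78.6. Cspg5, a chondroitin sulfate proteoglycan, was the member below both contusion arrays, at 55.4, 29.0 and 26.8 against 114.2 and 82.7 (−1.47 ± 0.73). The neurotrophin receptor gene Ngfr, listed with Schwann cells, had 94.0, 86.5 and 81.3 against 21.2 and 13.9 (2.34 ± 0.68), and its other treated median of 66.4 was near the X-ray level.

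Neuron genes rested on 1 contusion array. Their median of 0.36 over 29 genes became −0.20 without contusion 1, and against the other treated cords it was −0.15, with 22 of 29 lower. Nefh, the heavy neurofilament, had 3561.1, 2732.4 and 3473.6 in the X-ray arrays against 797.1 and 2704.0 in the contusion arrays, with contusion 1 far below the others and an other treated median of 3957.1. Gad2, an enzyme that makes the inhibitory transmitter GABA, had 31.0, 36.8 and 103.3 against 371.3 and 351.0 (−2.88 ± 0.93), and the other treated range of 23.5 to 304.2 took in all X-ray arrays.

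Cholesterol synthesis genes were higher than in untreated contusion in 16 of 17, with 7 above both contusion arrays (41.2%) and 1 below (5.88%). The median of 0.49 ran from 0.32 to 0.66 with any array left out. Fdps, which makes the farnesyl precursor of sterols, had 395.7, 562.5 and 289.9 in the X-ray arrays against 144.3 and 50.2 in the contusion arrays (2.24 ± 0.65, range 1.47 to 3.00). Insig1, the sterol sensor of the endoplasmic reticulum, had 496.3, 463.4 and 474.2 against 30.9 and 148.7 (2.82 ± 0.96, range 1.68 to 3.95), and lay above all 13 other contused arrays. The other treated medians were 299.5 for Fdps and 307.7 for Insig1, and the fitted differences from those cords were 0.54 ± 0.46 and 1.32 ± 0.69. Against the other treated cords the list median was 0.22. The log2 average over the list stood at 8.72, 8.60 and 8.42 in the X-ray arrays against 7.67 and 8.0 in the contusion arrays, with the other treated cords at 7.86 to 8.70. Srebf1, the transcription factor of lipid synthesis, was not on this list. It was read by a probe set at 201.5, 423.8 and 129.4 in the X-ray arrays against 2484.3 and 1395.2 in the contusion arrays (−3.06 ± 0.88). The other treated cords had a Srebf1 median of 488.9 (258.9 to 2212.9), and the uninjured cords ran from 72.2 to 921.1, below both contusion arrays. Against the other treated cords Srebf1 differed by −1.35 ± 0.63. Another probe set of Srebf1 differed by −0.79 from contusion.

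Vessel, matrix and immune effector genes differed list by list. Cldn5, the tight junction protein of the blood-spinal cord barrier, had 451.3, 656.5 and 433.9 in the X-ray arrays against 247.1 and 68.1 in the contusion arrays (1.96 ± 0.53, range 1.03 to 2.89, the lowest without contusion 2). It lay above all 13 other contused arrays and fell within the uninjured range of 250.1 to 855.9. Slco1a4, an organic anion transporter of the same barrier, had 620.3, 259.8 and 1216.0 against 2449.6 and 1591.3 (−1.77 ± 0.70), and its other probe set differed by −0.80. The other treated range of Slco1a4, 257.7 to 1717.5, took in all X-ray arrays. The endothelial list had 2 of 19 above and 2 below and a median of 0.12. The matrix list had 6 of 34 above (17.6%) and 2 below, with a median of 0.17. Adamts4, a protease that cleaves proteoglycans, had 3460.9, 2143.4 and 2227.1 against 846.1 and 1046.2 (1.44 ± 0.50) and lay above all 19. Timp1, the metalloproteinase inhibitor, had 6637.5, 9519.7 and 9610.6 against 5995.0 and 9570.7 and overlapped. Of 13 complement genes 4 lay above both contusion arrays (30.8%) and 1 below (7.69%), with a median of 0.37, between 0.09 and 0.64 with any array left out. Complement C3 had 223.2, 295.3 and 362.1 against 147.1 and 32.2 (2.06 ± 0.71, range 0.97 to 3.16), and Serping1, the inhibitor of the first complement component, had 310.3, 190.6 and 488.6 against 54.5 and 60.6 (2.42 ± 0.97). For both the other treated medians, 180.2 and 164.9, were above both contusion values. Of 29 interferon and antigen presentation genes 7 lay above (24.1%) and 2 below (6.90%), with a median of 0.16. The immunoproteasome gene Psmb9 had 202.5, 529.7 and 519.3 against 35.2 and 63.5 (3.01 ± 1.07), whereas Tap1, the peptide transporter encoded beside it, had 112.1, 11.9 and 48.3 against 174.0 and 117.9 (−1.84 ± 0.73, range −2.58 to −0.96). The other treated range of Psmb9, 32.6 to 1000.5, took in all X-ray arrays, and that of Tap1, 78.8 to 240.0, took in X-ray 1.

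**Figure D4:**
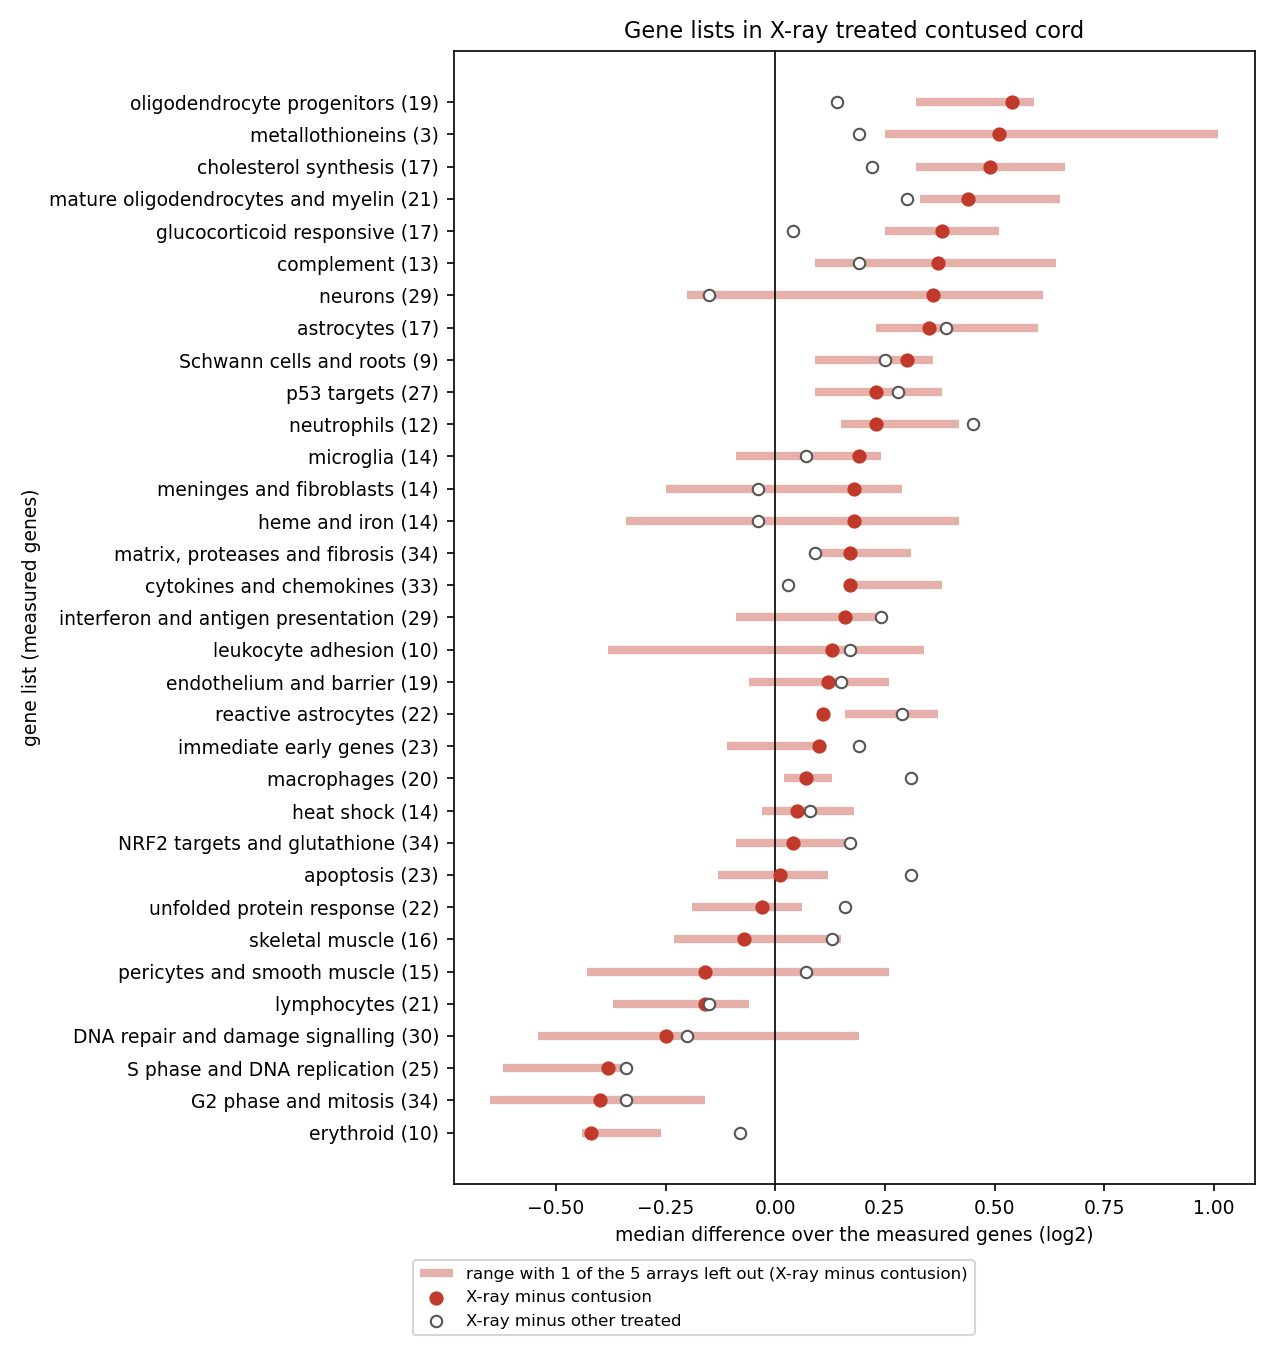
Median log2 difference of each of the 33 gene lists for X-ray minus contusion (filled points, with the range when 1 of the 5 arrays was left out) and X-ray minus the other treated cords (open points), which use the same X-ray arrays. The S phase and mitosis lists lie below 0 in both comparisons, the astrocyte, myelin and p53 lists above 0 in both, and the neuron list on opposite sides.

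The genes of this paragraph were taken only where all 3 X-ray arrays lay on the same side of both contusion arrays. That separation was therefore fixed by the choice. Those with the smallest p belonged to no common list. Among probe sets with 1 gene name and at least median signal, those on the lower side included the olfactory receptor gene Or2b2, with 18.1, 49.4 and 21.6 in the X-ray arrays against 325.8 and 341.1 in the contusion arrays (−3.64 ± 0.73, adjusted p = 0.69). On the higher side were C1h19orf47, with 4519.7, 3414.2 and 3498.0 against 493.7 and 321.9 (3.24 ± 0.77), and Tube1, for epsilon tubulin, with 755.9, 2058.4 and 990.6 against 128.8 and 96.6 (3.37 ± 0.85). Both had adjusted p = 0.942, and 3 dimmer probe sets of C1h19orf47 differed by 0.23, −0.86 and −0.22. The other 2 probe sets of Tube1, also dimmer, differed by −1.23 and −0.24. The p53 partner gene Mdm4, which restrains p53, had 1226.9, 713.0 and 1119.3 against 162.0 and 402.6 (1.96 ± 0.52, range 1.30 to 2.62), and its other treated median of 828.7 lay inside the X-ray range. The growth factor gene Fgf1 had 277.3, 226.1 and 575.1 against 127.6 and 25.1 (2.55 ± 0.68, range 1.37 to 3.72), but brighter probe sets of it differed by 0.40 and −0.27.

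Against the other treated cords 2 probe sets passed, both lower (0.00644% of those tested), and 1930 stood at an unadjusted p under 0.05. Over genes 2.46% were higher and 3.28% lower at that level, and the median difference of all genes was 0.03. Creb1, the transcription factor that answers cyclic AMP, fell by 3.19 on the log2 scale (SE 0.44, 9.11-fold, adjusted p = 0.0238). It had 24.8, 57.5 and 23.9 in the X-ray arrays, against 165.4 to 677.4 with a median of 275.1 in the other treated cords. The contusion arrays had 119.7 and 317.9, and no other array of the series was as low as any X-ray array. The call rests on 1 of 4 Creb1 probe sets. The other 3 differed from the other treated cords by −0.45, −1.55 and 0.17, and the last of these, the brightest of the 4, was not lower. Cdyl2, a chromodomain protein that binds methylated histone H3, fell by 2.40 (SE 0.36, 5.29-fold, adjusted p = 0.0408). It had 32.1, 47.6 and 24.4 in the X-ray arrays, against 111.2 to 382.6 in the other treated cords and 204.9 and 166.3 in the contusion arrays. The X-ray signals of Creb1 and Cdyl2 were far below the medians of these arrays, 144.0 to 147.7. The other probe set of Cdyl2, of similar brightness, differed by −0.87 from the other treated cords and by −0.55 from contusion. Neither passed without X-ray 1, X-ray 3, clenbuterol 1, clenbuterol 2 or tempol 1, when the logarithm was taken of the signal plus 32, with a replicate block (adjusted p = 0.0621 for each, limma), or when the fit left out laminectomy 2 and normal 1 or all arrays outside the comparison. Cdyl2 also did not pass without X-ray 2, tempol 3, tempol+BSO 1 or tempol+BSO 3, so it was lost whichever X-ray array was left out.

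Below these, the craniofacial development gene Cfdp1 (−2.50 ± 0.46) and Ssb, for the RNA-binding La protein (−2.13 ± 0.41), had adjusted p = 0.138 in the same comparison. Another probe set of each differed from the same cords by −0.31 and −0.40. The genes of this paragraph were taken only where all X-ray arrays lay on the same side of all other treated arrays, so that separation was fixed. On the higher side, Ccng1 was among the 5 such genes with the smallest p at or above the median signal (1.72 ± 0.44, limma adjusted p = 0.432). With it stood the proteasome gene Psmd11 (1.65 ± 0.42), the citrate synthase gene Cs (1.14 ± 0.30) and Tnfaip6, a secreted hyaluronan-binding protein (1.24 ± 0.34). Other probe sets of these 3 genes were not alike. Both brighter Psmd11 probe sets differed by 0.33 and −0.11, the other Cs probe sets by −0.23, −0.13 and −0.25, and the second Tnfaip6 probe set by −0.95. Tnfaip6 had 615.3, 922.8 and 1006.2 in the X-ray arrays, against 217.1 to 594.6 in the other treated cords and 485.1 and 512.1 in the contusion arrays.

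All 3 X-ray arrays lay above all 13 other contused arrays in 89 genes (0.626%) and below them in 53 (0.373%). They lay above all 19 other arrays in 42 genes and below all 19 in 25. Of the p53 targets 2 of 27 were above the 13, Ccng1 and Mdm2, and 0 below, while Rps27l, not on that list, was below. Of the cytokines and chemokines 3 of 33 were above. Of the macrophage genes 3 of 20 were above, and of the neutrophil genes 2 of 12. The macrophage genes above included Lyz2, which differed from contusion by only 0.11 ± 0.41 (range 0.06 to 0.13). Of the G2 and mitosis genes 1 of 34 was below the 13, and of the S phase genes 0 of 25. Some genes of no list, named after their values were seen, also lay outside the 13. Pdyn, which encodes the opioid precursor prodynorphin, had 878.8, 820.7 and 833.1 in the X-ray arrays against 61.6 and 460.3 in the contusion arrays (2.33 ± 0.90, range 0.87 to 3.78), and the highest other array was at 572.7. Actg1, cytoplasmic gamma actin, had 10039.1, 7426.5 and 6196.6 against 3781.7 and 3929.3 (1.00 ± 0.43), though a dimmer probe set of it differed by −1.45. Lmnb1, the lamin B1 gene of the nuclear envelope, had 239.8, 168.8 and 199.7 against 538.5 and 526.6 (−1.41 ± 0.42), below all 19, and dimmer probe sets of it differed by −0.31 and 0.02.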

How the data were processed

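RNA was measured on 22 Affymetrix rat arrays. The authors deposited a signal intensity per probe set. RMA is named per the submitters' processing notes, but the deposited values are linear and every array has a trimmed mean of about 250.0 after trimming 2% at each end. How background was corrected and probes were summarised is not stated there. The number of arrays limits the precision. Values were taken as log2, 57 control probe sets were left out, and 8 group means were fitted with limma 3.58.1 (R 4.3.3, lmFit and eBayes), with Benjamini-Hochberg adjustment over 31042 probe sets and a threshold of 0.05. One gene name was carried by 20826 probe sets, 436 had several and 9780 none. In lists and counts of genes, a gene with several was read by the brightest on average. A gene named for its p was read by the probe set that met the rule, which could be a dimmer one. X-ray was set against untreated contusion and against the mean of the 4 other treated groups, so both comparisons share the X-ray arrays and no overlap between them is given.

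Gene lists held 709 genes, of which 626 were measured, and the members and lists were chosen with earlier results of these data known. Genes were named by rule: those past the threshold, up to 3 per list, a fixed set, and those with the smallest p at or above the median signal. The last were 12 (untreated contusion) or 5 (other treated) in each direction. They were taken only where all 3 X-ray arrays lay on the same side of all reference arrays, so that separation was fixed by the choice. Others are said to be chosen after their values were seen. Promoter letters came from RefSeq, GRCr8. Same-numbered samples of different groups had correlated deviations of −0.20 to 0.20, so the numbers were not taken as pairs. The fit was tested on simulated data. Alternatives were quantile normalization, log2 of signal plus 32, a filter at the median signal, eBayes with trend and robust, array weights, a replicate block, fits on fewer arrays, and leaving out each replicate.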

Additional observations from a re-analysis of the deposited data

Results flagged for a closer look

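Creb1 and Cdyl2 stood apart because a direct test of the X-ray group against the other treated groups passed for them. Creb1 had 24.8, 57.5 and 23.9 in the X-ray arrays and a median of 275.1 in the other treated cords, a log2 difference of −3.19. Its adjusted p (limma) ran from 0.00476 with the filter at the median signal to 0.173 without X-ray 3. Cdyl2 had 32.1, 47.6 and 24.4 in the X-ray arrays and a median of 154.8 in the other treated cords, a log2 difference of −2.40. Its adjusted p ran from 0.0061 to 0.196 under the same settings. For these 2 probe sets the direction held in all 22 alternatives run. Their X-ray signals were far below the array medians of 144.0 to 147.7, and neither passed with log2 of signal plus 32. The brightest Creb1 probe set differed by 0.17 in the same comparison and the other Cdyl2 probe set by −0.87.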

How the results depend on the processing

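Between X-ray and untreated contusion 0 probe sets passed, and 0 passed with quantile normalization, log2 of signal plus 32, trend and robust, or only the compared arrays. The filter at the median signal gave 1 and array weights 2, and leaving out 1 replicate gave 0 to 1 (1 without contusion 1 and 1 without X-ray 2). Against the other treated cords, where 2 passed, quantile normalization gave 2, trend and robust 3, the filter 10, array weights 19, and 0 passed with log2 of signal plus 32, with only the compared arrays, and without laminectomy 2 and normal 1. Leaving out 1 replicate gave 0 to 3, with 0 without X-ray 1, clenbuterol 1, clenbuterol 2 or tempol 1. With a replicate block 0 passed in either comparison. The causes were not tested.

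Some log2 differences from untreated contusion changed sign with 1 replicate left out. They ran from −0.72 to 0.81 for Gadd45a, −0.41 to 0.36 for Top2a, −0.02 to 0.43 for Gclc, −0.19 to 0.47 for Gclm, −0.18 to 0.50 for Timp1, −0.05 to 0.45 for Aif1 and −0.27 to 0.59 for Mbp. The range was −0.23 to 1.61 for Cx3cr1, −1.07 to 0.34 for Mt1, −0.01 to 1.46 for Itgb2 and −0.10 to 0.80 for Pmp22. Top2a was 0.03 with quantile normalization and 0.01 with array weights, and Gadd45a 0.00 with array weights. With 2 contusion arrays, each of them carries much of every difference.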
